A study of Homo sapiens with 10 samples.

Results

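Antisense long noncoding RNAs whose symbols end in AS1 are transcribed from the strand opposite a coding gene, and each is named after that gene. The set described here held every such RNA with a mean of at least 1 count per 1000000 counts (CPM) in the control libraries. It comprised 375 of the 1612 AS1 lncRNAs in the deposited count table. The other 1236 lay under that level and are not members. The rule used control counts only as a floor, and the comparison below sets 5 knockdown libraries against the same 5 control libraries.

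The libraries came from cardiomyocytes grown out of H1, a widely used line of human embryonic stem cells. Both groups were transfected on day 9 of differentiation and harvested 48 h later. The control group received 50 nM of a control GapmeR, and the knockdown group received 50 nM of a GapmeR against CLIPPER, the RNA the series is named for. A GapmeR is a short antisense oligonucleotide with a DNA centre that directs RNase H to cut the RNA it pairs with. Each group had 5 libraries of total RNA depleted of ribosomal RNA and made with a strand-marking kit, and nothing in the labels says whether replicates came from separate differentiations. The p-values therefore measure the spread between these libraries, which may be technical. No row is named CLIPPER, so the level of the target was not analysed here.

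Antisense lncRNAs arise in several arrangements. Some start beside the promoter of the coding gene and run away from it, an arrangement called head to head or divergent, in which a single open promoter region serves both strands. Others start inside the coding gene or beyond its far end and run back through it. Many are spliced and kept in the nucleus, some are short-lived substrates of the nuclear exosome, and a few in the heart, such as the transcript beside HAND2, are known to matter for expression of the neighbouring transcription factor.

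The names matched the annotation. Of the 375 RNAs, 371 had the coding gene of their name in GENCODE release 44, and in 371 of 371 that gene lay on the opposite strand. The gene spans overlapped in 351 of these pairs. The canonical transcripts started head to head, within 1 kb of each other, in 150 pairs, with a median of 325 bp between the starts. In 97 pairs the lncRNA started inside the coding gene, in 109 it started beyond the 3′ end, and in 15 it started upstream at more than 1 kb.

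Promoter windows from RefSeq (build GRCh38.p14, from 250 bases before a start to 50 bases after it) were found for 287 of the 375 RNAs. The 6 stretches here were chosen after their values were seen, as examples of GC-rich and GC-poor starts among members that rose and fell. They are the parts of the windows that lie in no exon of a coding gene, written 5′ to 3′ on the strand of the lncRNA. Capitals mark matches to a searched motif on either strand, which in these stretches were GC boxes and CCAAT boxes. KMT2E-AS1 (chr7:105014092-105014163, minus strand), FGD5-AS1 (chr3:14948392-14948631, minus strand) and PTPRD-AS1 (chr9:8857777-8858067, plus strand) rose. PITX1-AS1 (chr5:135033136-135033323, plus strand), KCNQ5-AS1 (chr6:73143465-73143764, minus strand) and GRM3-AS1 (chr7:86803387-86803686, minus strand) fell.
KMT2E-AS1: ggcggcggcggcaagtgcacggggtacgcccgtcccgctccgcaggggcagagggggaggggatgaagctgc
FGD5-AS1: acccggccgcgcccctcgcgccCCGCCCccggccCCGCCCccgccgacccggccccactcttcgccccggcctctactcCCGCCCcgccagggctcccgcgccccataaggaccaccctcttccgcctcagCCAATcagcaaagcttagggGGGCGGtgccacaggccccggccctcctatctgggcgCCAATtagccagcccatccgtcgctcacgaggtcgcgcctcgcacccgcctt
PTPRD-AS1: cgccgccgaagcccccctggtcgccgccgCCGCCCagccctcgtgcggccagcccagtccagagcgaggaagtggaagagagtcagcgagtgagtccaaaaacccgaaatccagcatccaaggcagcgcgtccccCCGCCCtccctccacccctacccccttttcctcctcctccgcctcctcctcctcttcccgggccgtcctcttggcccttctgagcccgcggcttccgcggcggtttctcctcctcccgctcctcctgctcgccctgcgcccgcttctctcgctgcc
PITX1-AS1: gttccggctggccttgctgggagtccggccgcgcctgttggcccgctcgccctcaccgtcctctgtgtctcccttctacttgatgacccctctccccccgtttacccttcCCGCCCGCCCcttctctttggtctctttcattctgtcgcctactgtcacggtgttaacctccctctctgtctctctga
KCNQ5-AS1: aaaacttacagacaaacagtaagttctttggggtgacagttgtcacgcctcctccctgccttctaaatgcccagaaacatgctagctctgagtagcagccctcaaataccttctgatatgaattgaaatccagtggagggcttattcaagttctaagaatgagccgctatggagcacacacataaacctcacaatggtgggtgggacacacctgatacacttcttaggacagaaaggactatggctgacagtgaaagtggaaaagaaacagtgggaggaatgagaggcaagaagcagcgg
GRM3-AS1: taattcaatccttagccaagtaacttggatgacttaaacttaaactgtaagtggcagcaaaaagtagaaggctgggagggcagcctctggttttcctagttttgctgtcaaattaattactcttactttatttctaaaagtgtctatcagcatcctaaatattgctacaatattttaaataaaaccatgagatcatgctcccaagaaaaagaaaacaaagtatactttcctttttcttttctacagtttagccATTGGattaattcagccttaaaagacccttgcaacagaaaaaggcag

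The 3 stretches of rising members had a GC content of 76.4%, 75.4% and 70.4%. Those of PITX1-AS1, KCNQ5-AS1 and GRM3-AS1 had 61.7%, 46.3% and 34.3%, and the GRM3-AS1 stretch held 0 CG dinucleotides. Other named members went the other way, since the stretches of DLGAP1-AS1 and SMIM15-AS1, which rose, had 46.0% and 58.9%, and that of EHBP1-AS1, which fell, had 67.3%. The stretches differ in length, with 72 bases for KMT2E-AS1, 151 for SMIM15-AS1 and 188 for PITX1-AS1. Over their whole windows of 300 bases these 3 had 72.3%, 64.7% and 66.3%. Over whole windows the median GC content was 64.7% for 159 members that rose, 60.7% for 69 that fell, 65.3% for 59 that did not pass the test and 58.3% for all 27305 promoters in the table. A TATA box (TATAAA on either strand) stood in 4.4% of the windows of risers, in 15.9% of those of fallers and in 12% of all promoters. GC boxes (GGGCGG) stood in 60.4%, 46.4% and 44.6% of these windows, and in 67.8% of those of the 59 members that did not pass. CCAAT boxes were in 28.3%, 39.1% and 35.7%. For the ETS core CCGGAAG the shares were 14.5%, 15.9% and 10.7%. The CRE motif TGACGTCA was in 2.52%, 4.35% and 1.98%. A GC box can lie inside a longer GC-rich motif. Position relative to the coding gene moved with these features, since the 119 head-to-head windows had a median GC content of 67.0% and a TATA box in 4.2%. The windows were cut at RefSeq starts and the arrangements set from GENCODE starts, so the 2 can refer to different starts. For SBNO1-AS1, a head-to-head RNA, these lay 1080 bp apart. Among those 119, risers and fallers differed little in GC content (65.7% for 87 and 66.8% for 16). For GC boxes the order was reversed there, with 60.9% of the 87 risers and 81.2% of the 16 fallers. A GC box therefore did not mark rising members once position was held to head to head.

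The AS1 lncRNAs rose more often than they fell after the CLIPPER GapmeR. By the edgeR quasi-likelihood test with Benjamini-Hochberg adjustment over all 21033 tested genes, 202 of the 375 were higher in the knockdown at an adjusted p below 0.05, 94 were lower and 79 did not pass. The same test called 40.1% of all tested genes higher and 39.6% lower, against 53.9% and 25.1% of the AS1 lncRNAs. Among the 1857 lncRNAs with at least 1 CPM in controls, members included, 44.7% were called higher and 33.2% lower, and among 13207 coding genes at that level 33.9% and 49.7%. The members' share called higher lay above each of these backgrounds and their share called lower lay below each. This held for the head-to-head RNAs but not for those that start inside the coding gene or beyond its 3′ end. In either direction, 79.7% of all tested genes were called. In bulk RNA, fewer cells of a type and less RNA per cell cannot be told apart.

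The median log2 fold change, knockdown minus control, was 0.46 over the 375, 0.222 over lncRNAs with at least 1 CPM, -0.277 over coding genes with at least 1 CPM and 0.00564 over all tested genes. A rise of more than 2-fold was called for 130 members and of more than 4-fold for 48, which is 34.7% and 12.8%. Over all tested genes such rises were called in 24.3% and 9.83%. For lncRNAs with at least 1 CPM these shares were 29.2% and 11.0%, and for coding genes at that level 14.4% and 2.51%. Falls of more than 2-fold were called for 52 members, or 13.9%. The share was 24.2% of all tested genes, 21.1% of lncRNAs with at least 1 CPM and 29.1% of such coding genes. The highest knockdown library lay below the lowest control, or the reverse, for 237 members, which compares with 64.2% of all tested genes.

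**Figure D1:**
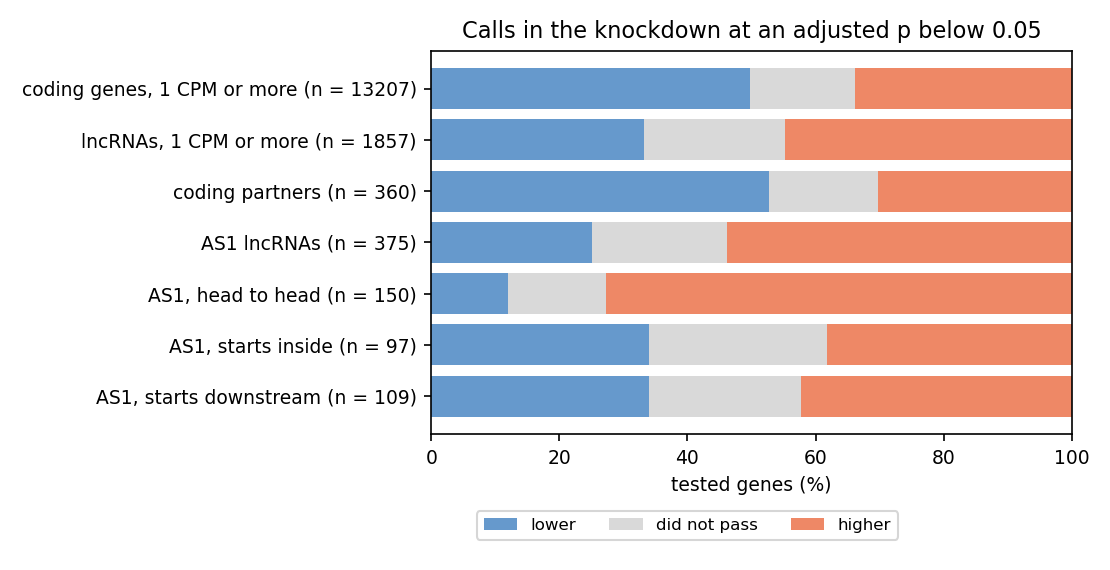
Share of tested genes (x axis, percent) called lower, not passing or higher in the knockdown at an adjusted p below 0.05, for coding genes and lncRNAs with at least 1 CPM in controls, the coding partners, and the AS1 lncRNAs in all and by where they start. The share called higher was 53.9% in the AS1 lncRNAs and 72.7% in the head-to-head ones, against 30.3% in the coding partners.

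Every knockdown library showed the rise. Summed over members, AS1 lncRNAs took 0.25%, 0.264%, 0.276%, 0.27% and 0.288% of the counts in control replicates 1 to 5. They took 0.501%, 0.422%, 0.478%, 0.476% and 0.479% in knockdown replicates 1 to 5, so the lowest knockdown library lay well above the highest control. The number of members above all 5 controls was 232, 221, 204, 196 and 208 in the 5 knockdown libraries, and the number below all 5 controls was 81, 85, 101, 121 and 108. Control libraries set against the other controls also gave uneven counts. Control replicate 5 had 156 members above all the others and 37 below, and control replicate 1 had 32 above and 127 below. The same counts over all genes are not given here. In CPM, the falls were milder in knockdown replicates 1 and 2. Over the members called lower, the median log2 ratio to the control mean was -0.74 and -0.63 in those 2 libraries and -1.18, -1.47 and -1.24 in the other three. These ratios and counts leave out the scaling factors of the test. Those factors were 1.162 and 1.119 in the 2 libraries and 0.9558, 0.8992 and 0.9665 in knockdown replicates 3 to 5. A higher factor lowers a library's scaled values, so part of this contrast lies in the scaling. With both libraries left out, 201 members were called higher and 95 lower.

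By level, the share called higher was similar and the share called lower was larger among RNAs with more counts. Of 127 members with 1 to 2 CPM in controls, 71 rose and 23 fell (55.9% and 18.1%), and of 63 with 10 CPM or more, 35 rose and 20 fell (55.6% and 31.7%). In these classes 33 of the 127 and 8 of the 63 did not pass. Falls from near the floor leave few reads, and how the power to call them varied with level was not tested. Just inside the floor stood KANSL1L-AS1, TGFB2-AS1 and KCNQ5-AS1 with control means of 1.005, 1.006 and 1.027 CPM. Just outside stood NECTIN3-AS1, GCC2-AS1 and C1RL-AS1 with 0.9856, 0.9833 and 0.9822 CPM.

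The members that took the most counts went in both directions. OIP5-AS1, the human counterpart of the conserved RNA cyrano, had 120, 138, 119, 123 and 122 CPM in control replicates 1 to 5. It had 288, 298, 240, 237 and 250 CPM in knockdown replicates 1 to 5, and the groups did not overlap. The log2 fold change was 1.02 ± 0.0834 (SE, edgeR adjusted p = 3.7e-07). Its partner OIP5, a centromere protein, took few counts and rose less (1.51 ± 0.153 to 2.26 ± 0.183 CPM, mean ± SD, n = 5 each, log2 fold change 0.55).

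FGD5-AS1, which starts near NR2C2 beyond the 3′ end of FGD5, rose further. Its control libraries held 103, 102, 124, 110 and 119 CPM and its knockdown libraries 335, 242, 374, 419 and 377 CPM. Knockdown replicate 2 was the lowest of these and still lay far above the highest control. The log2 fold change was 1.64 ± 0.177 (adjusted p = 3.5e-06). FGD5 itself, an endothelial exchange factor for Cdc42, had few counts (0.367 ± 0.1 to 0.461 ± 0.15 CPM) and did not pass (adjusted p = 0.42).

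STARD4-AS1 and ZNF710-AS1 fell together with their partners. STARD4-AS1 had 87.7, 88.8, 126, 98.9 and 118 CPM in controls and 55.1, 55.5, 32.2, 23.6 and 38.9 CPM in the knockdown. The log2 fold change was -1.41 ± 0.166, beside -1.04 ± 0.143 for STARD4, a sterol carrier. ZNF710-AS1 went from 53.4 ± 6.32 to 19.8 ± 5.25 CPM (log2 fold change -1.5 ± 0.142) and the zinc finger gene ZNF710 from 69.2 ± 4.89 to 27.8 ± 9.27 CPM (-1.39 ± 0.145). Counts of ZNF710-AS1 were 77.0% ± 5.74 of those of ZNF710 in controls and 72.5% ± 7.91 in the knockdown, ranges that overlapped.

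The 6 largest rises among members whose groups did not overlap were all of head-to-head RNAs. ZNF674-AS1, beside the start of a zinc finger gene on the X chromosome, had 3.57, 3.06, 3.4, 3.06 and 2.71 CPM in controls and 31.8, 24.9, 46.8, 47.2 and 42 CPM in the knockdown. That was a 12.1-fold rise (log2 fold change 3.59 ± 0.244, adjusted p = 1.2e-07). ZNF674 did not pass (5.11 ± 0.581 to 4.47 ± 0.512 CPM, adjusted p = 0.053), although it did without control replicate 3 (log2 fold change -0.31, adjusted p = 0.02).

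KMT2E-AS1 had tightly grouped libraries on both sides of a wide gap. It had 8.54, 9.14, 10.4, 8.66 and 8.95 CPM in controls and 124, 90.2, 104, 100 and 101 CPM in the knockdown, an 11.0-fold rise (log2 fold change 3.46 ± 0.11, adjusted p = 4.2e-09). KMT2E, which encodes a chromatin protein of the SET domain family, fell in the same libraries. It had 116, 104, 129, 114 and 116 CPM in controls and 64.3, 68.2, 47.1, 37.1 and 42.2 CPM in the knockdown (log2 fold change -1.23 ± 0.113, adjusted p = 9e-07). Counts of the antisense RNA thus went from 7.89% ± 0.543 of those of KMT2E to 211% ± 52.0. The lncRNA spans 1.04 kb and the coding gene 174 kb.

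SBNO1-AS1 had 1.1, 1.78, 2.06, 1.46 and 1.29 CPM in controls and 13.2, 9.32, 22.6, 24.9 and 20 CPM in the knockdown (11.7-fold, log2 fold change 3.55 ± 0.335). The log2 fold change of SBNO1, a helicase gene, was -0.32 ± 0.109 (adjusted p = 0.018). That call was lost without knockdown replicate 5 (-0.25, adjusted p = 0.056) and with upper-quartile scaling (-0.12).

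NFYC-AS1 stood beside a partner that changed little. It had 4.1, 3.06, 3.55, 3.67 and 3.39 CPM in controls and 33.9, 23.8, 35.9, 35.1 and 36 CPM in the knockdown (9.08-fold, log2 fold change 3.18 ± 0.176). NFYC, a subunit of the factor that binds CCAAT boxes, had a mean of 106 ± 2.87 CPM in controls and 108 ± 4.75 in the knockdown (log2 fold change -0.01 ± 0.0814, adjusted p = 0.92).

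In the remaining pairs of this group the coding gene rose as well. SPACA6-AS1 went from 1.15 ± 0.164 to 10.9 ± 2.2 CPM (log2 fold change 3.19 ± 0.136) and SPACA6, a sperm fusion protein gene, from 7.78 ± 1.12 to 14.8 ± 3.43 CPM (0.87 ± 0.117). SMIM15-AS1 went from 1.23 ± 0.208 to 11.2 ± 1.54 CPM (3.14 ± 0.145) and SMIM15 from 27.4 ± 1.54 to 84.1 ± 20.3 CPM (1.61 ± 0.202). Relative to its partner the antisense RNA gained counts in both pairs, and the ratios of the 2 groups did not overlap.

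**Figure D2:**
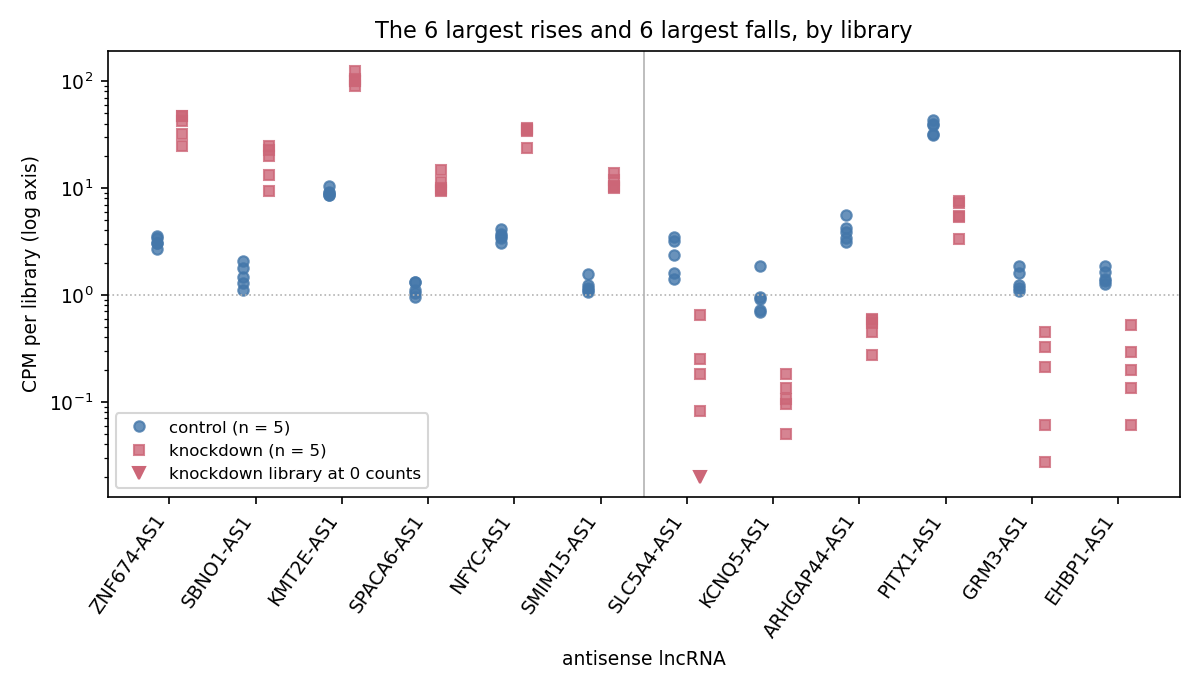
CPM per library (log axis) of the 6 largest rises and the 6 largest falls among AS1 lncRNAs, for 5 control (circles) and 5 knockdown (squares) libraries, with the floor of 1 CPM dotted and a triangle for the library with 0 counts of SLC5A4-AS1. The groups were separate for each of these RNAs, and KMT2E-AS1 lay between 8.54 and 10.4 CPM in controls and between 90.2 and 124 CPM in the knockdown.

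Among the largest falls, PITX1-AS1 was the most abundant in counts. It had 31.8, 31.5, 39.4, 39.2 and 43.6 CPM in controls and 7.19, 7.53, 5.35, 3.32 and 5.41 CPM in the knockdown, a 6.72-fold fall (log2 fold change -2.75 ± 0.15, adjusted p = 3.4e-08). PITX1, a homeobox gene of the hindlimb, was nearly silent in both groups, with at most 0.0501 CPM in any library, and was not tested. The lncRNA spans 325 kb, and 70.8% of its exon bases lie under exons on the opposite strand.

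ARHGAP44-AS1 fell from 4.03 ± 0.96 to 0.49 ± 0.134 CPM (8.5-fold, log2 fold change -3.09 ± 0.218), and ARHGAP44 fell 4.03-fold. KCNQ5-AS1 had 0.96, 0.688, 1.85, 0.718 and 0.921 CPM in controls and between 0.0501 and 0.182 CPM in the knockdown (9.12-fold, -3.19 ± 0.399). KCNQ5, a potassium channel gene of 577 kb, fell 9.84-fold from 39.5 ± 2.85 to 4.25 ± 2.57 CPM. The fitted factors of the RNA and the gene it lies in were thus close, but single libraries did not keep a steady ratio. Counts of KCNQ5-AS1 ranged from 1.81% to 4.4% of those of KCNQ5 in controls and from 1.01% to 7.69% in the knockdown.

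EHBP1-AS1 likewise fell by a factor close to that of its partner, 6.28-fold beside 5.75-fold for EHBP1, a gene of membrane traffic. GRM3-AS1 fell from 1.39 ± 0.329 to 0.216 ± 0.178 CPM (6.54-fold), while the glutamate receptor gene GRM3 stayed at or below 0.298 CPM in each of the 10 libraries and was not tested. SLC5A4-AS1 had 1.42, 2.38, 1.61, 3.19 and 3.45 CPM in controls and 0.251, 0.642, 0, 0.0816 and 0.182 CPM in the knockdown (log2 fold change -3.40 ± 0.531). Its value was -4.22 without knockdown replicate 2, and 54.8% of its exon bases overlap exons of another gene on the same strand, so its counts are uncertain.

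Where the lncRNA started relative to the coding gene went with how it changed. Of the 150 head-to-head RNAs, 109 rose, 18 fell and 23 did not pass, and the median of their log2 fold changes was 0.92. Of the 97 that start inside the coding gene, 37 rose, 33 fell and 27 did not pass, and of the 109 that start beyond its 3′ end, 46 rose, 37 fell and 26 did not pass. Both of these groups had a median of 0.06. The 15 that start farther upstream gave 8 rises and 5 falls. In these pairs the coding genes leaned downward, with 52 rises and 69 falls among 149 tested partners of head-to-head RNAs (median -0.12), 24 and 57 among 93 partners with an inside start (-0.78), and 32 and 56 among 104 with a downstream start (-0.38). The orientation classes were set after these data had been seen. When whole gene ends rather than canonical transcripts defined them, 304 RNAs kept their class. Then 80 of 110 head-to-head RNAs rose and 15 fell (median 0.92), while 73 of 151 with an inside start rose and 42 fell (0.28), and 47 of 110 with a downstream start rose and 36 fell (0.16), a smaller contrast than with canonical transcripts.

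Set side by side, 360 pairs had both genes tested. Both rose in 81 and both fell in 61. The antisense RNA rose while its partner fell in 80, and the reverse held in 11. In another 34 the RNA rose and the partner did not pass, in 18 the RNA fell and the partner did not pass, in 17 only the partner was called higher, in 49 only the partner was called lower, and in 9 neither passed. The fitted log2 fold change of the RNA lay above that of its partner in 255 of the 360 pairs. LncRNAs with at least 1 CPM lay above coding genes at that level in general (medians 0.222 and -0.277). No count from unrelated pairs was made, so these counts cannot be read as particular to the pairs. Over all tested coding partners, 109 rose and 190 fell (30.3% and 52.8%), shares near those of coding genes with at least 1 CPM.

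The 2 log2 fold changes of a pair were weakly related. Spearman's rank correlation across the 360 pairs was 0.302, given as a description, since both values come from the same 10 libraries. By arrangement, it was 0.0977 in 149 head-to-head pairs, 0.385 in 93 pairs with an inside start and 0.416 in 104 with a downstream start. Among the head-to-head pairs, 42 rose together, 9 fell together and in 44 the RNA rose while the partner fell. The corresponding counts for downstream starts were 22, 26 and 15.

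**Figure D3:**
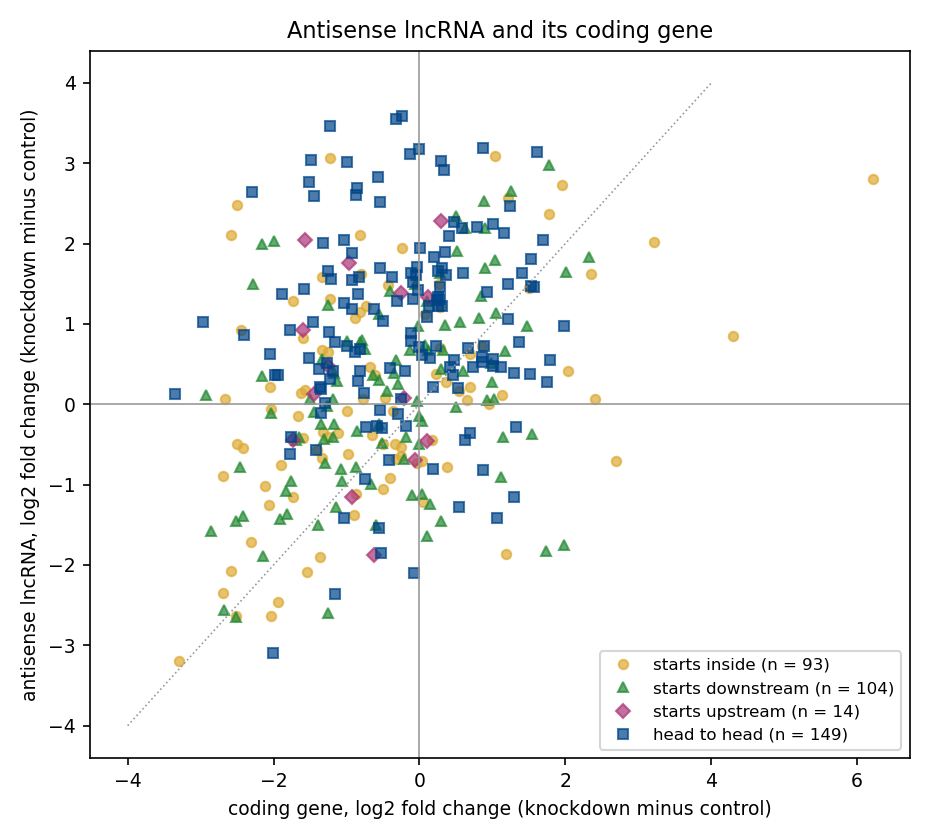
Log2 fold change (knockdown minus control) of each AS1 lncRNA (y axis) against that of its coding gene (x axis) for 360 pairs, with the marker showing where the lncRNA starts and a dotted line where both would be equal. Head-to-head pairs show little relation between the axes (rank correlation 0.0977, n = 149), and 255 of the 360 points lie above it.

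Among pairs called in opposite directions, 4 had the largest difference in log2 fold change, and KMT2E-AS1 with KMT2E was among them. DLGAP1-AS1, which starts inside the 959 kb gene of a synaptic scaffold protein, had 3.31, 3.44, 3.49, 4.07 and 3.82 CPM in controls and 28.3, 22.9, 19.2, 17.7 and 17.1 CPM in the knockdown (log2 fold change 2.48 ± 0.108, adjusted p = 9.9e-09). DLGAP1 went the other way, from 4.42 ± 1.25 to 0.813 ± 0.393 CPM (-2.50 ± 0.276). HLCS-AS1 rose from 1.96 ± 0.587 to 12.5 ± 1.31 CPM (2.64 ± 0.216), while HLCS, the enzyme that attaches biotin to carboxylases, fell from 33.1 ± 2.6 to 7.08 ± 3.34 CPM (-2.30 ± 0.208). PTPRD-AS1 lies within PTPRD, a receptor phosphatase gene that spans 2300 kb. It had 5.81, 6.22, 7.7, 6.46 and 7.32 CPM in controls and 23.9, 17.9, 33.1, 36.4 and 33.7 CPM in the knockdown (2.11 ± 0.23), beside a fall of PTPRD from 224 ± 30.2 to 39.8 ± 21.7 CPM (-2.59 ± 0.27). In these pairs neither the RNA nor the gene had overlapping groups.

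Gene span, the length from start to end with introns, moved with these changes. The median change of AS1 lncRNAs of up to 5 kb was 0.91 on the log2 scale (60 higher and 17 lower of 90). Those of 5 to 20 kb had 0.59 (72 and 17 of 115), those of 20 to 100 kb 0.20 (57 and 35 of 123), and those over 100 kb -0.40 (13 and 25 of 47). Coding genes with at least 1 CPM went from 0.84 to -1.48 across the same 4 classes, and lncRNAs from 0.57 to -0.67. Of the lncRNAs, 54.0% of those up to 5 kb and 24.5% of those over 100 kb were called higher, beside 66.7% and 27.7% of AS1 lncRNAs. The partners of 99 RNAs spanned over 100 kb, and 86 of the 98 tested fell. That share, 87.8%, lay near the 87.5% of all coding genes of that span with at least 1 CPM. The antisense RNAs of these 99 divided, with 45 higher, 37 lower and 17 not passing. Among the 86 pairs with such a long falling gene, the RNA rose in 37 and fell in 35. Across members the rank correlation with the RNA's own span was -0.236 (n = 375) and with the partner's span -0.144 (n = 371), whereas that of the partner's change with its own span was -0.647 (n = 360).

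Within classes of span the counts by arrangement were uneven, and the differences between arrangements were not tested. Among RNAs of up to 5 kb, 36 of 44 head-to-head ones rose and 1 fell, of 33 that start inside the gene 14 rose and 14 fell, and of 8 that start downstream 6 rose and 1 fell. Between 20 and 100 kb, 24 of 39 head-to-head RNAs rose and 8 fell, beside 23 and 19 of 57 that start downstream. Over 100 kb, 4 of 12 head-to-head RNAs rose and 6 fell (median -0.54), beside 5 and 12 of 20 that start downstream (median -0.38). Of 36 members with 1 exon after merging transcripts, 27 rose and 3 fell (median 1.28). Of the other 339, 175 rose and 91 fell (0.41).

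**Figure D4:**
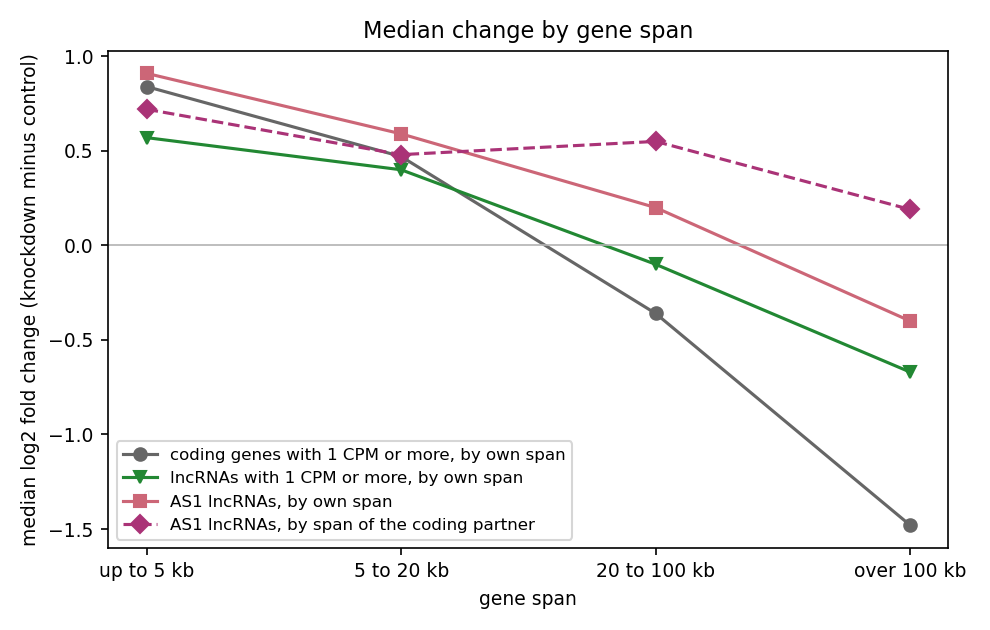
Median log2 fold change (y axis) in 4 classes of gene span (x axis) for coding genes, lncRNAs and AS1 lncRNAs by their own span, and for AS1 lncRNAs by the span of the coding partner (dashed). Medians of AS1 lncRNAs went from 0.91 to -0.40 by their own span, and by partner span from 0.72 to 0.19 while coding genes went from 0.84 to -1.48.

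Overlap between genes bears on how far these counts can be trusted. The kit marks strand, but the strand setting of the counting is not given in the sources used here. It was checked on 195 pairs in which every exon base of one gene lies under exons of a gene on the other strand with at least 50 CPM in controls. Of the covered genes 45.6% had counts in controls, with a median of 0 and an upper quartile of 1.06% of the covering gene's CPM per base. Counting by strand gives that pattern. Counting without strand can give it too where reads shared between genes are dropped, so the check cannot decide the setting. MALAT1 had 622 CPM and its antisense gene TALAM1 4.37 CPM. For the 50 members whose exons overlap no exon of another gene, 30 rose, 10 fell and 10 did not pass (median 0.69). For the 43 with same-strand exon overlap, whose reads could belong to either gene, 18 rose and 15 fell (median -0.11). The rank correlation between the log2 fold change and the share of exon bases under opposite-strand exons was -0.0307 (n = 375).

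Members beside cardiac genes were taken from a list of 73 names, of which 71 genes were tested. Of these 57 fell, 7 rose and 7 did not pass (median -1.23). That was 80.3% lower and 9.86% higher, beside 49.7% and 33.9% of coding genes with at least 1 CPM. The falls included GATA4, KCNQ1 and ZFPM2 (5.1-fold, 3.01-fold and 6.27-fold lower) and the rises SMAD5, GATA5 and TRIM63 (2.85-fold, 2.64-fold and 2.13-fold higher). KMT2E was in this list too. The antisense RNAs of 8 other listed genes were members, and they did not follow their partners uniformly.

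HAND2-AS1 starts within HAND2, a transcription factor gene of the developing ventricle, and both fell. The RNA had 113, 118, 110, 121 and 119 CPM in controls and 88.4, 109, 69.3, 61.3 and 68.3 CPM in the knockdown (log2 fold change -0.62 ± 0.102, adjusted p = 0.00012). Knockdown replicate 2, at 109 CPM, lay just under the lowest control. HAND2 went from 172 ± 8.95 to 91.4 ± 25.6 CPM (-0.98 ± 0.119), so the ratio of the lncRNA's counts to those of HAND2 rose from 67.7% ± 3.24 to 87.4% ± 4.5, with no overlap.

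TTN-AS1 runs back through TTN, the gene of the sarcomere's giant spring. It had 63.3, 89.3, 75.6, 83.8 and 72.8 CPM in controls and 34.6, 42.7, 28, 20.8 and 29.6 CPM in the knockdown (-1.37 ± 0.134). TTN fell from 12200 ± 1370 to 3690 ± 1970 CPM (-1.81 ± 0.257). Counts of TTN-AS1 were 0.634% ± 0.0703 of those of TTN in controls and 0.93% ± 0.211 in the knockdown. Exons on the other strand cover 54.9% of its exon bases, and the part of reads from that strand in its counts was not tested.

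TRDN-AS1 starts inside TRDN, which encodes the junctional calcium release protein triadin. Its control libraries held 25.1, 29.7, 24.7, 27 and 19.8 CPM and its knockdown libraries 9.42, 22.7, 8.17, 7.21 and 8.73 CPM. Knockdown replicate 2 lay inside the control range, while the other four did not. The log2 fold change was -1.25 ± 0.254 (adjusted p = 0.00061), and that of TRDN was -2.06 ± 0.182. MEF2C-AS1 fell from 1.35 ± 0.221 to 0.635 ± 0.354 CPM (-1.15 ± 0.324), beside MEF2C, a core cardiac transcription factor gene (144 ± 11.0 to 79.5 ± 22.4 CPM, -0.93 ± 0.122).

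The RNAs beside TBX5 and GATA6 rose while these transcription factor genes fell. TBX5-AS1 had 14.6, 13.8, 18.2, 15.3 and 18.7 CPM in controls and 58.1, 42.8, 57.6, 57.8 and 61.2 CPM in the knockdown (log2 fold change 1.76 ± 0.143, adjusted p = 4e-07). TBX5 had 87.9, 76.3, 119, 93.4 and 109 CPM in controls and 63.5, 61.4, 43.9, 37.1 and 52.9 CPM in the knockdown (-0.97 ± 0.122). Neither gene had overlapping groups, and counts of the RNA went from 16.7% ± 1.05 of those of TBX5 to 113% ± 33.6. GATA6-AS1 rose less, from 15.1 ± 2.31 to 21.9 ± 3.82 CPM (0.48 ± 0.103, adjusted p = 0.00098), beside a fall of GATA6 from 91.5 ± 8.4 to 40.4 ± 16.0 CPM (-1.26 ± 0.17). Its lowest knockdown library equalled the highest control at 17.7 CPM to 3 digits.

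TBX2-AS1 rose with TBX2, a repressor of chamber genes in the atrioventricular canal. It had 2.09, 2.31, 2.45, 2.45 and 3.53 CPM in controls and 12.3, 10.1, 11.9, 11.6 and 13.8 CPM in the knockdown (2.19 ± 0.16). TBX2 rose by 0.62 ± 0.165 on the same scale, with overlapping groups. IRX4-AS1, head to head with the ventricular homeobox gene IRX4, did not pass (5.28 ± 0.546 to 5.16 ± 0.512 CPM, log2 fold change -0.07 ± 0.15, adjusted p = 0.67), while IRX4 fell (-0.54 ± 0.0773).

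**Figure D5:**
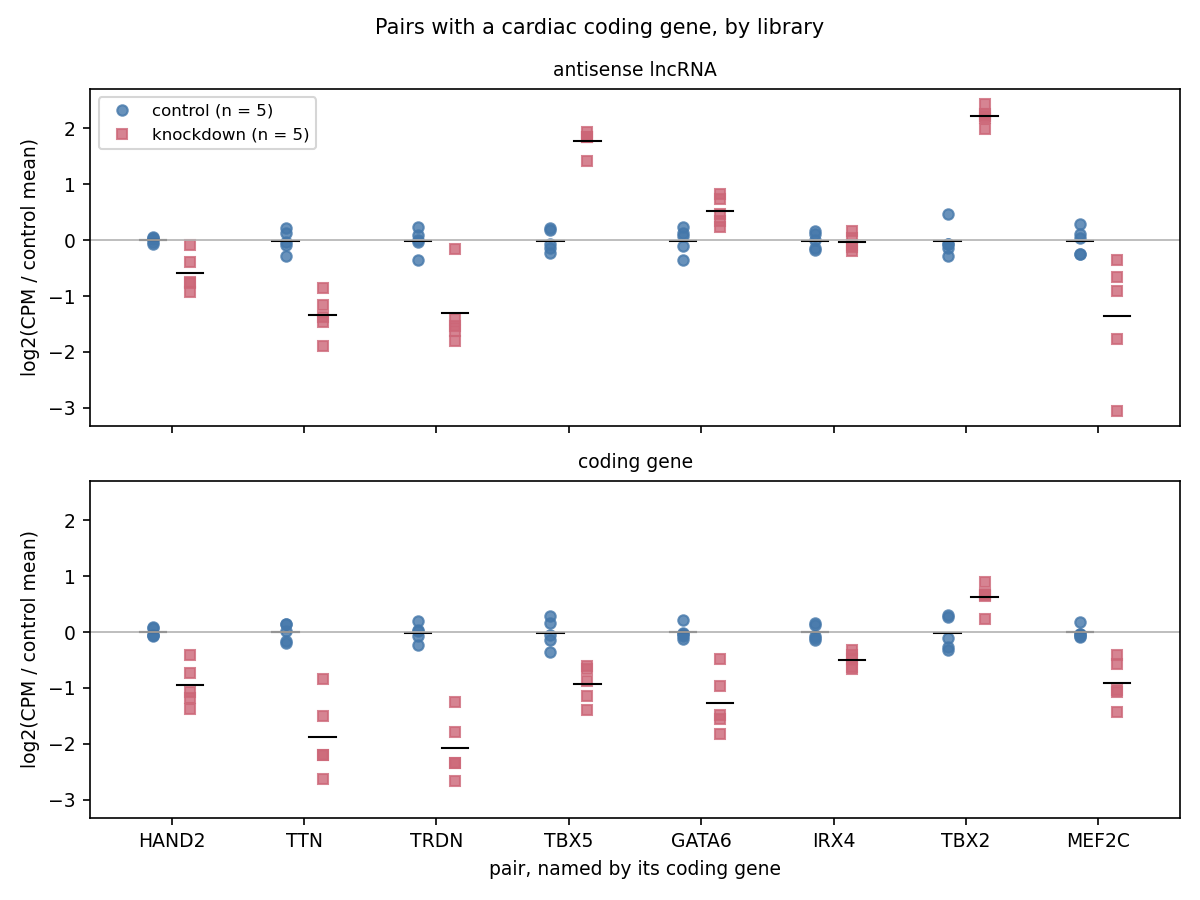
Log2 of the ratio of each library's CPM to the control mean for the antisense lncRNA (top) and the coding gene (bottom) of 8 cardiac pairs, in 5 control (circles) and 5 knockdown (squares) libraries, with a bar at each group's mean of these values. TBX5-AS1 and GATA6-AS1 stand above 0 in the knockdown where TBX5 and GATA6 stand below it.

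Of the members that did not pass, the ones with the most counts had partners of every kind. LIMD1-AS1 (21.1 ± 1.96 to 22.6 ± 3.47 CPM) and LIMD1, a scaffold protein gene, both stayed within their spread (log2 fold changes 0.04 and -0.04). PSMA3-AS1 (17.5 ± 2.61 to 18.6 ± 1.25 CPM, 0.05 ± 0.107) stood beside PSMA3, a subunit of the proteasome, which rose from 47.4 ± 2.28 to 92.9 ± 5.67 CPM (0.93 ± 0.0817). TTC28-AS1 (17.5 ± 2.68 to 19.4 ± 1.45 CPM, 0.12 ± 0.118) stood beside TTC28, a gene of 702 kb that fell from 118 ± 4.75 to 16.4 ± 8.78 CPM (-2.93 ± 0.241). CD27-AS1 (14.1 ± 1.21 to 17.1 ± 3.75 CPM, 0.21 ± 0.105) had an adjusted p of 0.078, and of 0.031 without knockdown replicate 4. With upper-quartile scaling the values of LIMD1-AS1, TTC28-AS1 and CD27-AS1 were 0.24, 0.32 and 0.41, and each passed.

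Other lncRNAs with antisense-type names, such as those ending in AS2, AS or IT1, were counted beside the members. Of 42 with at least 1 CPM, 16 rose, 15 fell and 11 did not pass (median -0.01). These shares, 38.1% higher and 35.7% lower, lay near the 40.1% and 39.6% of all tested genes. Among lncRNAs with at least 1 CPM the shares were 44.7% and 33.2%. GTF3C2-AS2, DLGAP1-AS2 and ANKRD10-IT1 rose (log2 fold changes 3.24, 2.31 and 1.5), and CDH13-AS2, NPTN-IT1 and CTBP1-AS fell (-1.65, -2.18 and -2.21). Among genes of RNA decay (RNase H, the nuclear exosome and its adaptors), 18 of 33 rose, 13 fell and 2 did not pass (median 0.26). That was 54.5% higher and 39.4% lower, beside 40.1% and 39.6% of all tested genes. For coding genes with at least 1 CPM the shares were 33.9% and 49.7%. The exosome subunit genes EXOSC5 and EXOSC2 rose 2.52-fold and 2.92-fold, and SRRT, which encodes the cap-complex partner ARS2, rose 4.75-fold. SMG6 and UPF1 of nonsense-mediated decay fell 4.23-fold and 2.58-fold, and ZC3H3 of the adaptor class fell 5.85-fold. The part of these genes in the level of the AS1 lncRNAs was not tested.

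The cells carried cardiomyocyte markers in both groups at different levels. The 10 markers summed to between 37600 and 49000 CPM in controls and between 14800 and 25800 CPM in the knockdown, and 9 of the 10 fell. Smooth muscle markers (5) summed to 1500 to 2590 CPM in controls and 613 to 1090 in the knockdown, stromal markers (7) to 1240 to 1370 and 913 to 1230, and endothelial markers (6) to 29.1 to 51.9 and 7.92 to 19.8. Of the 7 stromal markers 4 fell, while COL1A2 rose 1.57-fold and 2 did not pass. Neural markers (5) summed to 25.4 to 37.7 CPM in controls and 61.6 to 68.3 in the knockdown, mostly TUBB3. TUBB3 rose 2.24-fold, DCX fell 1.5-fold and STMN2 did not pass. Endoderm markers (6) summed to 5.37 to 7.1 and 12.1 to 17.8 CPM, mostly APOA1, with TTR at 0 in every control. Pluripotency markers (7) summed to 7.3 to 10.6 and 8.08 to 9.27 CPM, with POU5F1 and NANOG under 0.1 CPM on average in both groups. Within that list LIN28A rose 9.67-fold (0.254 to 2.53 CPM) and ZFP42 5.59-fold, while DNMT3B fell 1.96-fold. The part of these shifts in the changes of the AS1 lncRNAs was not tested. Library totals ran from 32879710 to 45052044 counts, so 1 count was worth 0.0222 to 0.0304 CPM.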

How the data were processed

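Total RNA of 10 libraries was sequenced, 5 per group, and the sample titles gave each library's group and replicate number. The authors deposited raw counts of reads per gene, without the scaling by depth and length that the design text describes. According to that text and, per the labels, the submitters' processing notes, reads were trimmed (Trim Galore 0.65), aligned to GRCh38 (STAR 2.7.0, GENCODE release 38) and counted (HTSeq). The version of HTSeq and its strand setting were not given in the sources used here.

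Names, classes and positions were taken from GENCODE release 44 (GRCh38), which held 61481 of the 78932 identifiers. The other 17451 carried between 0.25% and 0.408% of a library's counts and stayed in the totals and tests. ASMTL-AS1 stood in 2 rows with identical counts and was counted once. An AS1 lncRNA is not reported here.

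CPM is the count per 1000000 counts of its library, with no other scaling and no division by length. Tests used edgeR 4.0.16 in R 4.3.3 (trimmed mean of M-values, filterByExpr, robust quasi-likelihood F test, Benjamini-Hochberg adjustment over 21033 genes, threshold 0.05), which also gave the log2 fold changes. Their standard errors were obtained from the fold change and its F statistic. The scaling assumes that most rises and falls balance, so a fold change says nothing of RNA per cell. All 10 libraries differed by more than sampling noise (the smallest chi-square over its degrees of freedom was 4.13), and the replicate spread rather than counting error set the precision. The procedure was also run on counts simulated with the dispersions of these data. Of 67, 67 and 66 genes changed 1.5-fold, 2-fold and 4-fold among 19417, it recovered 37.3%, 71.6% and 98.5%. False calls were 2.82% of its calls. Far fewer genes changed there than the 79.7% called here, so the simulation cannot say how scaling behaves in these data.

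The set, its lists and its comparisons were chosen with earlier results of these data known. Named members were the 6 with the highest control CPM, the 6 largest rises and 6 largest falls among called members without overlapping groups, the 4 highest that did not pass, those beside listed cardiac genes, the 4 widest pairs with opposite calls, and 3 on each side of the floor. From each gene list up to 3 rises and 3 falls with the smallest p were to be named. Arrangement classes and the printed promoter stretches were chosen after values were seen.

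Alternatives were upper-quartile factors, size factors of DESeq2 1.42.0 and its own test, limma-voom (limma 3.58.1), other filters, no robust dispersions, the replicate number as a block, each library left out, knockdown replicates 1 and 2 left out, and other floors. Leaving out members with exon overlap, and arrangement by gene ends (added after seeing the data), were also tried.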

Additional observations from a re-analysis of the deposited data

Results flagged for a closer look

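Single libraries stood apart in 9 of 116 groups of 5 libraries examined for 58 named genes, and chance marks about 1 group in 20. In each, the gap to the nearest library was over 0.71 of the group's range. Knockdown replicate 2 was the one in 3 of them: TRDN-AS1 at 22.7 CPM (nearest 9.42), NFYC-AS1 at 23.8 CPM (nearest 33.9) and TBX5-AS1 at 42.8 CPM (nearest 57.6). In all 3 this library lay on the side of the controls.

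PSMA3 was at 103 CPM in knockdown replicate 1 (nearest 92.0). Among controls, OIP5-AS1 was at 138 CPM in replicate 2 (nearest 123), KCNQ5-AS1 at 1.85 CPM in replicate 3 (nearest 0.96) and MEF2C at 163 CPM in replicate 3 (nearest 141). LIMD1-AS1 was at 24.5 CPM in control replicate 4 (nearest 20.9), and TBX2-AS1 at 3.53 CPM in control replicate 5 (nearest 2.45). Without the high library the control mean of KCNQ5-AS1 would fall under 1 CPM, so its place in the set rests on that library.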

How the results depend on the processing

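No member called in both fits reversed its direction under any alternative tried, and leaving out 1 library gave 189 to 205 members higher and 89 to 97 lower. The replicate numbers did not pair the libraries (correlations of same-numbered deviations -0.17, 0.221, 0.105, -0.000432 and -0.0361), and with the replicate number as a block 197 members were higher and 90 lower. Upper-quartile scaling shifted all genes by a median of 0.197, gave a member median of 0.66, 224 higher and 75 lower, and moved SBNO1 to -0.12, LIMD1-AS1 to 0.24, TTC28-AS1 to 0.32 and CD27-AS1 to 0.41. A floor of 1 CPM over all 10 libraries admitted 443 RNAs with a median of 0.86, which includes RNAs that pass through the knockdown alone. A control floor of 2 CPM left 248 RNAs with 131 higher, 72 partners higher and 52 pairs both higher. The 50 RNAs without exon overlap, a smaller set by construction, gave 30 higher and 10 lower with a median of 0.69, 7 partners higher and 36 lower, and pairs of 4 both higher, 8 both lower, 20 with the RNA higher and the partner lower, and 2 the reverse. Testing only genes with a mean of at least 1 CPM tested 357 members, with 207 higher and 73 lower. CD27-AS1 passed under 5 alternatives, at 0.24 to 0.41. The normalisation cannot say whether RNA per cell changed.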
